A study of Mus musculus with 6 samples.

Results

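The miR-290 to miR-295 cluster is a group of mouse microRNA (miRNA) hairpins that lie side by side on 1 stretch of chromosome 7. It was measured in the erythroid line G1E-ER4 with and without estradiol. Its members were taken by name. They are mmu-miR-290, mmu-miR-291a-5p, mmu-miR-291a-3p, mmu-miR-291b-5p, mmu-miR-291b-3p, mmu-miR-292-5p, mmu-miR-292-3p, mmu-miR-293, mmu-miR-294 and mmu-miR-295, written below without the prefix mmu. These make 10 of the 275 mouse miRNA names on the array. They are read by 11 of the 294 miRNA probes, because 1 further probe names miR-291a-5p and miR-291b-5p together. Each probe stands in 4 spots.

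G1E-ER4 is an erythroid progenitor line that lacks its own GATA-1, the transcription factor that drives red cell maturation, and carries a form of GATA-1 that estradiol switches on. Arrays were made from 3 cultures given 1e-07 M estradiol for 24 h and from 3 untreated cultures (0 h), and all 6 cultures were grown in medium with erythropoietin and stem cell factor and harvested independently. Each sample was labelled with the dye Hy3 and hybridised against the same reference in Hy5, an equal mixture of the RNA of all 6 samples. No cells kept for 24 h without estradiol and no cells without the estradiol-activated GATA-1 were measured, so GATA-1 activation cannot be told apart from the time in culture or from further actions of estradiol.

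As background, a miRNA hairpin is cut into a duplex whose 5′ arm (5p) and 3′ arm (3p) can each be kept as a mature miRNA. The seed, bases 2 to 8 of the mature miRNA, sets most of its target choice. The hairpins of this cluster are made from 1 shared transcript, which is among the most abundant miRNA sources of mouse embryonic stem cells and is switched off as these cells differentiate. Most of its 3p miRNAs, but not miR-293-3p, carry the AAGUGC core, which is known for speeding the passage from G1 to S phase in embryonic stem cells. The cluster is not a known marker of the red cell lineage.

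In RefSeq (GRCm38.p6) the 7 hairpins of the named members lie on the plus strand of chromosome 7, between 3218626 and 3220841, a span of 2216 bases. Further hairpins at this place were not looked for. The mature sequences are shown because the results divide along the 2 arms, and capitals mark the seed. The array's older names miR-290, miR-292-5p, miR-293, miR-294 and miR-295 were matched to miR-290a-5p, miR-292a-5p, miR-293-3p, miR-294-3p and miR-295-3p. The files do not state the arm of miR-290, miR-293, miR-294 and miR-295, and it was taken from the naming history of these miRNAs. The 5′ arms, in their order on the chromosome, are:
miR-290a-5p (chr7:3218639-3218660): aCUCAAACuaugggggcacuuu
miR-291a-5p (chr7:3218932-3218953): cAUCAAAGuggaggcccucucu
miR-292a-5p (chr7:3219200-3219221): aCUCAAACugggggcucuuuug
miR-291b-5p (chr7:3219494-3219515): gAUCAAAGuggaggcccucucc

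The 3′ arms, in the same order, are:
miR-291a-3p (chr7:3218968-3218989): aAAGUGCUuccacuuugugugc
miR-291b-3p (chr7:3219529-3219550): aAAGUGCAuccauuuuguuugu
miR-293-3p (chr7:3220390-3220411): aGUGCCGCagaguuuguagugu
miR-294-3p (chr7:3220691-3220712): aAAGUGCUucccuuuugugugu
miR-295-3p (chr7:3220815-3220837): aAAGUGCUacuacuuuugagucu

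The array also carries a probe for miR-292-3p. By seed, miR-290a-5p pairs with miR-292a-5p (CUCAAAC), and miR-291a-5p pairs with miR-291b-5p (AUCAAAG). Among the 3′ arms, miR-291a-3p, miR-294-3p and miR-295-3p share AAGUGCU, miR-291b-3p has AAGUGCA and miR-293-3p has GUGCCGC. miR-290a-5p and miR-292a-5p have the same first 9 bases and are identical at 15 of 22 positions. Both carry a run of 5 G, and 40 of the 1679 mature mouse miRNAs in the RefSeq table (2.38%) have a run of at least 5 G. miR-291a-5p and miR-291b-5p are identical at 20 of 22 positions, with the substitutions C1G and U22C (the base of miR-291a-5p, the position from the 5′ end, then the base of miR-291b-5p). How well a probe tells such a pair apart could not be read from the files, so the values of the 3 probes of this pair are uncertain as to which miRNA they report.

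The probes for the 5′ arms of the cluster gave signal above background, and those for the 3′ arms did not. Whether the signal came from the named miRNAs or from other RNA bound by these probes was not tested. A probe was taken as bright enough to test if its Hy3 signal stood over 2 standard deviations (SD) of the local background above that background in at least a share of 0.5 of its usable spots, on all 3 arrays of a group. All 5 of the 5′ arm probes passed and 0 of the 6 probes for 3′ arms did. Over the probes whose array name itself states the arm, 4 of 4 passed for 5′ arms and 0 of 3 for 3′ arms. Among the other 283 miRNA probes, 46 passed (16.3%). Which arm a probe reads is not part of how the members were chosen, but levels of different probes cannot be set against each other, since probes bind and glow with different strength.

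miR-292-5p and miR-290 cleared the limit on every array. The miR-292-5p probe stood 27.6, 31.8 and 23.1 background SDs above background in Hy3 on the estradiol arrays (replicates 1 to 3), and 11.5, 18.9 and 10.4 on the untreated arrays. The miR-290 probe stood at 26.0, 28.2 and 17.2 background SDs on the estradiol arrays, and at 11.0, 20.5 and 11.9 on the untreated arrays. These values are not normalized between arrays, and more miRNA probes lay above background on the estradiol arrays in both channels. They therefore describe detection and are not read as a difference between the groups. Both probes were above background on all 6 arrays in Hy3 and in Hy5.

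The miR-291-5p probes lay nearer to the limit. The probe that names miR-291a-5p and miR-291b-5p together stood at 6.24, 6.16 and 5.69 background SDs on the estradiol arrays, and at 2.47, 5.89 and 4.87 on the untreated arrays. It was above background on all 6 arrays in both channels. The miR-291b-5p probe stood at 5.18, 4.04 and 3.59 on the estradiol arrays, and at 1.53, 2.77 and 2.05 on the untreated arrays, where replicate 1 missed the limit. The miR-291a-5p probe stood at 2.58, 2.31 and 1.91 on the estradiol arrays, and at 1.95, 2.06 and 0.29 on the untreated arrays. The limit of 2 is set per spot, and the values given here are medians over the usable spots. Arrays with a median just under the limit could therefore still pass. Untreated replicate 3 was called empty for miR-291a-5p by the authors' spot finder, and it missed the limit in Hy5 too. The miR-291a-5p probe is therefore the tested cluster probe with the least margin.

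The 6 probes for 3′ arms gave no signal that could be told from background. Their Hy3 signal lay between -0.14 and 0.30 background SDs from the local background over 36 values (median 0.04), and their Hy5 signal between -0.26 and 0.41 (median -0.03). The 5′ arm probes covered 0.29 to 31.8 background SDs in Hy3 (median 5.79, 30 values) and 0.40 to 55.3 in Hy5 (median 11.6). All 6 of the 3′ arm probes, miR-291a-3p, miR-291b-3p, miR-292-3p, miR-293, miR-294 and miR-295, counted as empty on all 6 arrays in both channels. The highest Hy3 value among them was that of miR-293 on estradiol replicate 1, 0.30 background SDs. In the authors' deposited tables a ratio was given on 6 arrays for the 5′ arm probes (5 arrays for miR-291a-5p), on 1 array for miR-292-3p, and on none for the other 3′ arms.

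**Figure D1:**
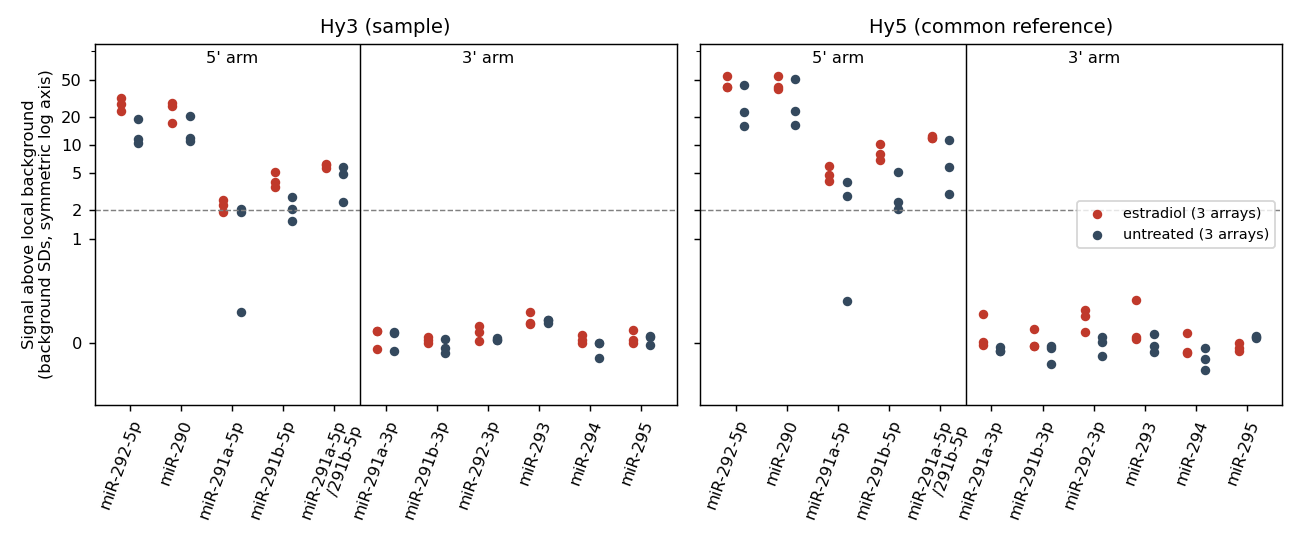
Signal of the 11 cluster probes above local background, in background SDs (vertical, symmetric log axis), in Hy3 (left, sample) and Hy5 (right, common reference). Points are single arrays (estradiol red, untreated blue) and the dashed line marks 2 background SDs. The 5′ arm probes reach up to 55.3 background SDs, while no 3′ arm probe exceeds 0.41 in either channel.

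The comparison of estradiol with untreated cells used the log2 ratio of Hy3 over Hy5, normalized within each array. A value of 0 means the trend of that array's non-control probes at that intensity, and not the level of the reference mixture. Of the 5 tested cluster probes, 1 passed the threshold of 0.05 on the adjusted p (limma, Benjamini-Hochberg over the 51 tested miRNA probes). Over all tested miRNA probes the share called was 13.7% (7 of 51, 6 of them higher with estradiol), so 1 of 5 is close to that background. The median difference was 0.02 over the 5 cluster probes and -0.05 over all 51. The called member was miR-292-5p, a 5′ arm with the seed CUCAAAC. With the arrays centred on spiked control probes instead, 37.5% of all calls were higher in place of 85.7%, and miR-292-5p lost its call.

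miR-292-5p had log2 ratios of 0.22, 0.12 and 0.15 on the estradiol arrays (replicates 1 to 3), and of -0.06, -0.28 and -0.61 on the untreated arrays. All estradiol arrays lay above 0 and all untreated arrays below it, with no overlap, and the untreated arrays spread more widely. It averaged 0.16 ± 0.05 in estradiol cells and -0.32 ± 0.27 in untreated cells (SD, n = 3 each). The difference was 0.48 on the log2 scale (SE 0.12, 95% interval 0.20 to 0.76, 1.40-fold higher with estradiol, limma adjusted p = 0.0243). The call was lost without any one of the estradiol replicates, with adjusted p = 0.0871, 0.0716 and 0.0714 without replicates 1, 2 and 3. Without untreated replicate 3, the lowest array, the difference was 0.34 (adjusted p = 0.0047).

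miR-290 carries the same seed as miR-292-5p and is made from the first hairpin of the cluster. Its log2 ratios were 0.16, 0.05 and -0.02 on the estradiol arrays, and -0.08, -0.21 and -0.30 on the untreated arrays. The groups did not overlap, but the lowest estradiol array and the highest untreated array lay close together. It averaged 0.06 ± 0.09 in estradiol cells and -0.20 ± 0.11 in untreated cells (SD, n = 3 each), a difference of 0.26 (SE 0.09, 95% interval 0.07 to 0.45). This missed the threshold (limma adjusted p = 0.0705). It passed without untreated replicate 1 (0.32, adjusted p = 0.0188). Groups without overlap occurred for 2 of the 5 cluster probes and for 30% of the tested miRNA probes with a value on all 6 arrays (15 of 50).

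The 3 miR-291-5p probes gave differences near 0 with intervals that included it. The combined probe had log2 ratios of -0.02, -0.07 and -0.03 on the estradiol arrays, and of 0.18, -0.03 and 0.00 on the untreated arrays. Its difference was -0.09 (SE 0.09, 95% interval -0.29 to 0.11, limma adjusted p = 0.63), and the groups overlapped. miR-291b-5p had 0.00, -0.09 and -0.05 on the estradiol arrays, and -0.22, 0.05 and 0.18 on the untreated arrays. The estradiol values of miR-291b-5p lay inside the range of the untreated ones, with a difference of -0.05 (SE 0.11, 95% interval -0.30 to 0.20, adjusted p = 0.83). It was 0.04 without untreated replicate 3.

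miR-291a-5p had log2 ratios of -0.28, -0.22 and -0.11 on the estradiol arrays, and of -0.10, 0.11 and -0.70 on the untreated arrays. The untreated arrays lay on both sides of the estradiol arrays, and the lowest was replicate 3, where this probe was at background. The difference was 0.02 (SE 0.19, 95% interval -0.40 to 0.45, limma adjusted p = 0.92), and it was -0.21 without untreated replicate 3. The 3 probes of this near-identical pair did not move together over the 6 arrays: Pearson's r was -0.56 between miR-291a-5p and miR-291b-5p, -0.52 between miR-291b-5p and the combined probe, and 0.08 between miR-291a-5p and the combined probe. These correlations describe 6 arrays that share 1 reference and carry no test.

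**Figure D2:**
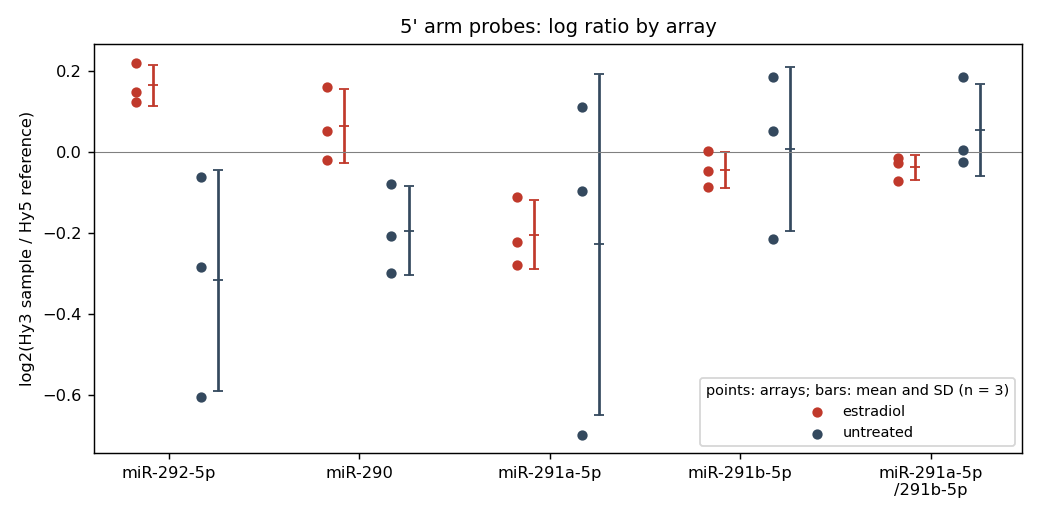
Normalized log2 ratio of sample (Hy3) over reference (Hy5) for the 5 detected cluster probes. Points are arrays, and the bars give the mean and SD of the 3 estradiol (red) and 3 untreated (blue) arrays. The groups separate for miR-292-5p and miR-290 and overlap for the 3 miR-291-5p probes.

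The probes for the members with the seed CUCAAAC had similar log2 ratios over the arrays. The log2 ratios of miR-290 and miR-292-5p correlated at r = 0.95 over the 6 arrays, against -0.65 to 0.45 for the other pairs of detected cluster probes. Both probes separate the groups, so this r includes the difference between the groups. How well each probe tells these similar miRNAs apart is not known. The difference with estradiol was still larger in miR-292-5p than in miR-290 by 0.22, since the log2 ratio of miR-292-5p minus that of miR-290 averaged 0.10 ± 0.06 in estradiol cells and -0.12 ± 0.17 in untreated cells (SD, n = 3 each). Against the combined miR-291-5p probe the same subtraction gave 0.20 ± 0.03 in estradiol cells and -0.37 ± 0.21 in untreated cells, a difference of 0.57. Both pairs were picked after their values were seen. Each gave p = 0.1 in a two-sided exact permutation test over the 6 arrays (adjusted p = 0.1 over the 2 pairs), the smallest p that 3 against 3 allows.

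For the 3′ arms there was no level to compare, and the fit without a brightness filter describes spots at background. In that fit 6.46% of all miRNA probes were called (19 of 294), and 0 of the 6 probes for 3′ arms were, by limma's adjusted p or at an unadjusted p under 0.05. Their log2 ratios spread widely, between -0.97 and 1.03. That spread is seen in miR-292-3p, at -0.97, -0.22 and -0.22 on the estradiol arrays and -0.01, -0.51 and 0.79 on the untreated arrays, with 1 usable spot on estradiol replicate 1. Its adjusted p was 0.36, the lowest of the 6, and that of miR-294 was 0.84, the highest. The median difference of log2 ratios was -0.18 over the 3′ arm probes and -0.02 over all 294. No fold is given for these probes, as both groups were at background.

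Because the reference was the same mixture on every array, its channel shows how far a probe's signal moved between arrays that carried the same RNA. The Hy3 foreground of miR-292-5p was 40934, 47984 and 32660 intensity units on the estradiol arrays, and 16590, 29497 and 19132 on the untreated arrays. Its Hy5 foreground was 35511, 41392 and 33482 on the estradiol arrays, and 13369, 38446 and 32674 on the untreated arrays. These foregrounds are not normalized between arrays, and the share of all probes without overlap was not counted on this scale. In Hy3 the groups did not overlap, while in Hy5 untreated replicate 2 was as bright as the estradiol arrays and untreated replicate 1 was far dimmer.

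With each channel quantile-normalized on its own, miR-292-5p averaged 15.08 ± 0.21 log2 units of Hy3 in estradiol cells and 14.50 ± 0.14 in untreated cells (SD, n = 3 each). The Hy3 difference was 0.58 (SE 0.12, limma adjusted p = 0.0014), where 9.8% of the tested miRNA probes were called. In Hy5 the reference differed by 0.20 between the same arrays (SE 0.14, adjusted p = 0.39). The median difference over all tested probes was 0.13 in Hy3 and 0.19 in Hy5. Relative to it, miR-292-5p stood 0.44 higher in Hy3 and 0.01 higher in Hy5.

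miR-290 differed by 0.16 in Hy3 (SE 0.14, limma adjusted p = 0.62), which is 0.03 relative to the median of all tested probes, and by -0.01 in Hy5, which is -0.21 relative to it. Relative to the median, miR-290 thus differed more in the reference than in the sample channel. For miR-291b-5p the estradiol arrays were higher without overlap in Hy3 (0.38, SE 0.34, adjusted p = 0.62) and also in the reference (0.44, SE 0.28, adjusted p = 0.39). Groups without overlap occurred for 20% of the probes in Hy3 and 14% in Hy5. miR-291a-5p differed by 0.42 in Hy3 (SE 0.46) and 0.35 in Hy5 (SE 0.46), and the combined probe by -0.03 (SE 0.35) and 0.11 (SE 0.33). In Hy5 alone 0 of the 5 cluster probes and 0% of all 51 were called by limma, and 7 of the 51 had an unadjusted p under 0.05.

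**Figure D3:**
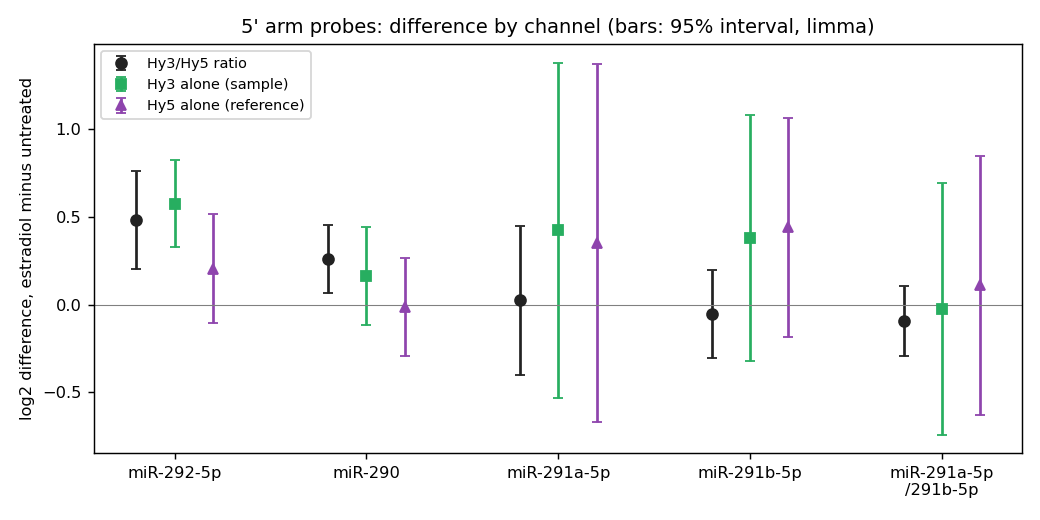
Difference between estradiol and untreated arrays (log2, vertical) for the 5 detected cluster probes, from the ratio (black), Hy3 alone (green) and the Hy5 reference alone (purple). Bars are 95% intervals from limma. Only miR-292-5p has an interval above 0 in Hy3, and no interval in the reference lies clear of 0.

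The authors' deposited log2 ratios put the arrays of these 2 members in nearly the same order. In the authors' deposited table miR-292-5p had 0.28, 0.16 and 0.12 on the estradiol arrays and 0.04, -0.23 and -0.66 on the untreated arrays. The deposited values of miR-290 were 0.27, 0.09 and 0.00 on the estradiol arrays and 0.05, -0.22 and -0.33 on the untreated arrays. On these values miR-292-5p differed without overlap, while the groups of miR-290 overlapped. The share of all probes without overlap was not counted on the deposited values. Fitted in the same way, miR-292-5p differed by 0.47 (limma adjusted p = 0.0640), so the call was not reached on the authors' ratios.

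**Figure D4:**
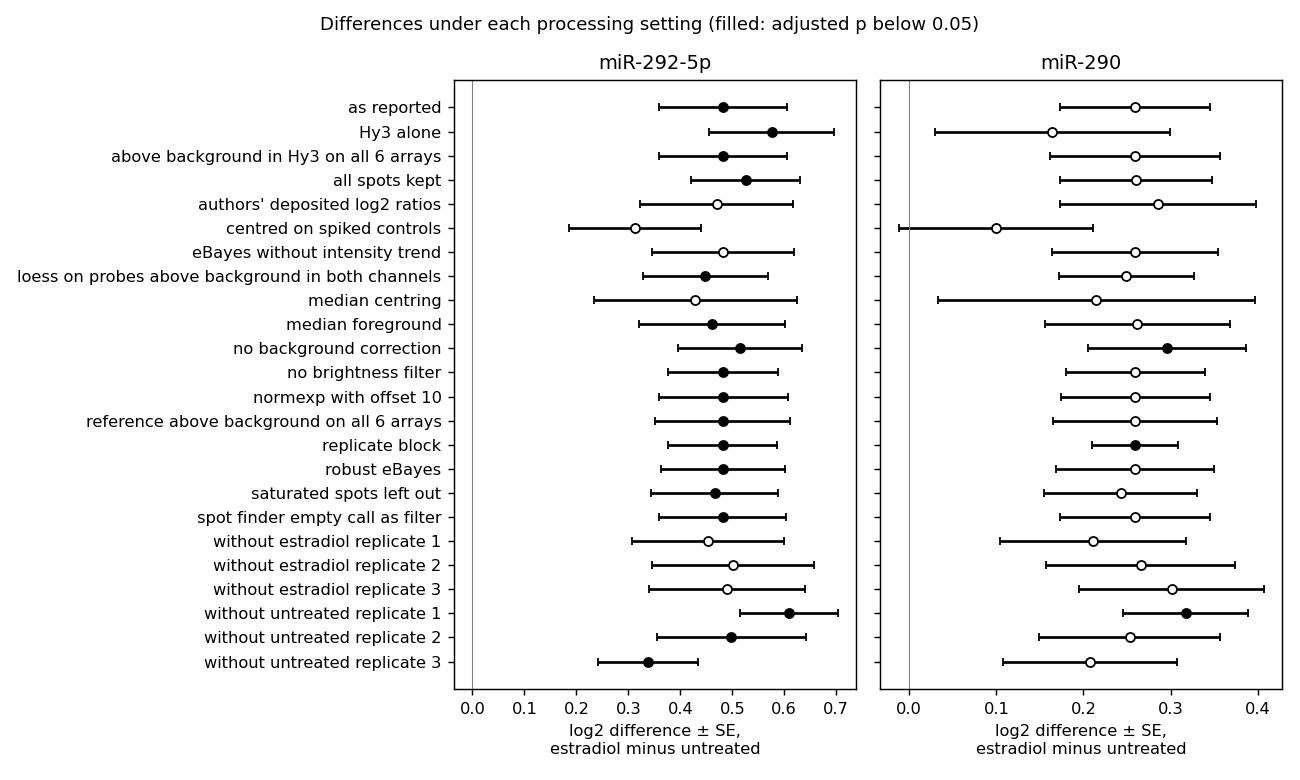
Difference (log2) ± SE between estradiol and untreated cells for miR-292-5p (left) and miR-290 (right) under each processing setting (vertical). Filled points have an adjusted p below 0.05. The difference of miR-292-5p is above 0 in all settings, between 0.31 and 0.61, and that of miR-290 is between 0.10 and 0.32.

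Among the other tested miRNAs, the 3 whose log2 ratios most resembled those of miR-292-5p over the 6 arrays were miR-142-3p, which is typical of blood cells, with r = 0.91, miR-129-5p with r = 0.83 and miR-500 with r = 0.82. They were taken from 46 probes outside the cluster. All 3 were called higher with estradiol in the ratio, by 0.92 (limma adjusted p = 0.0059), 0.52 (adjusted p = 0.0011) and 1.37 (adjusted p = 1.7e-05). Over all tested miRNA probes 11.8% were called higher. The 3 were picked for resembling a probe whose log2 ratios separate the groups, so their calls follow largely from that choice. In Hy3 alone, miR-142-3p differed by 0.32 (adjusted p = 0.63), miR-129-5p by 0.71 (adjusted p = 0.16) and miR-500 by 1.42 (adjusted p = 0.0023). In the Hy5 reference they differed by -0.53, 0.22 and 0.12 between the same arrays, in that order. Of the 3, miR-500 alone was also called in Hy3.

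The second miRNA cluster of pluripotent cells, miR-302 with miR-367, was at background throughout. None of its 8 probes passed the brightness filter, and all counted as empty in Hy3 on all 6 arrays. In the fit without a filter 0 were called, the largest difference being 0.35 for miR-302c (limma adjusted p = 0.53). The 3′ arms of the miR-302 hairpins carry the same AAGUGC core as miR-291a-3p, miR-291b-3p, miR-294-3p and miR-295-3p. Of the 7 probes for miRNAs with a seed that overlaps that core (the miR-17, miR-20, miR-93 and miR-106 group, which is known from growing cells of many types), 1 passed the filter. That was miR-106b, above background on 3 of 3 estradiol arrays and 2 of 3 untreated arrays. In the ratio it was higher with estradiol by 0.46 (SE 0.10, limma adjusted p = 0.0092). In Hy3 alone its difference had the opposite sign, -0.20 (SE 0.36, adjusted p = 0.74), and the Hy5 reference differed by -0.68 (SE 0.39, adjusted p = 0.39). The median difference without the filter was 0.05 over the 8 probes of the first list and -0.16 over the 7 of the second, against -0.02 over all 294.

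Marker lists of several cell types were read beside the labelled cell type. They describe the cultures and do not settle it, and sums of different lists cannot be set against each other. Of the 4 probes for maturing erythroid cells, 3 were called higher with estradiol (limma, no filter: miR-451, miR-144 and miR-16). In that fit 5.78% of all miRNA probes were called higher. miR-486 was not called (0.43, adjusted p = 0.18). Only miR-451 passed the brightness filter. miR-144 was above background on 0 of 3 arrays in either group, and miR-16 on 2 of 3 estradiol and 0 of 3 untreated arrays. The summed Hy3 level of the list was 13348 to 25634 in estradiol cells and 3758 to 6138 in untreated cells. miR-451, the defining miRNA of late erythroid cells, was above background on 3 of 3 estradiol arrays and 0 of 3 untreated arrays. Of the 4 probes for myeloid and mast cells, 3 were called higher in the same fit (miR-142-3p, miR-142-5p and miR-21). miR-223 was not called (0.39, adjusted p = 0.16). miR-142-3p alone passed the brightness filter, and in Hy3 alone it was not called (0.32, limma adjusted p = 0.63). It is typical of blood cells, so the list is not specific to myeloid and mast cells. miR-21 was above background on 0 of 3 arrays in either group. The sums were 11551 to 15988 in estradiol cells and 7204 to 15336 in untreated cells, with overlap. Of the 5 fibroblast probes 0 were called, with sums of 16208 to 18198 in estradiol cells and 17831 to 21710 in untreated cells. Among them miR-214 was above background on 3 of 3 estradiol and 3 of 3 untreated arrays, and it alone passed the brightness filter. The probes for miR-145, miR-199a and miR-199a* were above background on 0 of 3 arrays in either group. For miR-143 this was 0 of 3 estradiol and 1 of 3 untreated arrays. miR-143 had a mean log2 ratio of 3.07 in estradiol and 2.82 in untreated cells, against a reference mixed from the same samples. The cause was not tested. The sums for miR-302 and miR-367 were 2465 to 2635 in estradiol cells and 2340 to 2612 in untreated cells, all from probes that counted as empty. More miRNA probes lay above background on the estradiol arrays, 57 to 62 in Hy3 and 79 to 84 in Hy5, against 38 to 47 in Hy3 and 42 to 72 in Hy5 on the untreated arrays. The part of these other lists and of these array differences in the miR-292-5p difference was not tested.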

How the data were processed

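The deposited scanner tables give spot intensity per channel (foreground and local background, not subtracted) with flags. Per the file headers, the authors' log2 values are the log2 of a lowess-normalized Hy3/Hy5 ratio. Neither the scanner nor its software is given in the sources used here. Here, normexp (offset 50) was run on mean foreground and median background, followed by loess (span 0.3, control spots at weight 0), a mean over the spots of each probe, and lmFit and eBayes (trend on mean intensity) in limma 3.58.1 and R 4.3.3, with Benjamini-Hochberg adjustment and a threshold of 0.05. Spots marked bad were left out (111 to 212 of 2240 per array) and saturated spots kept. No dye swap is described, so a dye effect of a probe cancels only between groups. The number of arrays limits precision. Groups came from the titles. Scripts were tested on simulated data. Replicate numbers did not pair the samples (correlations 0.07, -0.11 and -0.12). Members and lists were chosen with earlier results of these data known. All members are named, with the 3 miRNAs most correlated with the member of lowest p, and from each list the called miRNAs or else the largest difference. Mature sequences are from RefSeq, which matched 9 of the 10 names.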

Additional observations from a re-analysis of the deposited data

Results flagged for a closer look

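In the reference channel, where all 6 arrays carry the same RNA, 1 array stood apart for 2 of the 11 cluster probes. The combined miR-291a-5p and miR-291b-5p probe had 12.02 log2 units of Hy5 on untreated replicate 1, against 12.75 to 13.11 on the other 5 arrays, and the gap was 0.665 of the whole range. miR-291a-3p had 8.73 on estradiol replicate 2, against 7.50 to 7.91 on the others, a gap of 0.669 of the range, and counted as empty on every array. Chance alone sets about 1 in 20 such groups apart.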

How the results depend on the processing

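Over 23 alternatives miR-292-5p kept its direction, at 0.31 to 0.61 with adjusted p between 0.0014 and 0.197. Its call was lost with median centring (0.43, adjusted p = 0.197), centring on spiked controls (0.31, adjusted p = 0.0735), the authors' deposited log2 ratios (0.47, adjusted p = 0.0640) and eBayes without the intensity trend (adjusted p = 0.0515), and without any one estradiol replicate. The median of all tested probes was -0.23 with spiked controls, and miR-292-5p stood 0.54 above it. miR-290 also kept its direction in 23 of 23 and passed with no background correction (0.30, adjusted p = 0.0367), with the replicate block (adjusted p = 0.0308) and without untreated replicate 1. The count of cluster probes called, 1 as reported, was 0 with the authors' ratios, spiked controls, no trend or median centring, 2 with no background correction or the replicate block, and 0 to 2 with 1 replicate left out. The count over all miRNA probes, 7 as reported, was 4 with median centring, 11 with no background correction, 19 with no brightness filter and 15 with the spot finder's empty call as filter, and 5 to 10 with 1 replicate left out. The share of higher calls, 85.7% as reported, was 75% with median centring, 37.5% with spiked controls and 60% with Hy3 alone. The number of 5′ arm probes tested, 5 as reported, was 3 when brightness was required on all 6 arrays, and the number of 3′ arm probes was 0 under all 10 alternatives tried. No cluster probe was called in the reference channel under 10 alternatives.

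Differences that changed sign were those of miR-291a-5p, to -0.21 with the authors' ratios, -0.23 with spiked controls, -0.11 with median centring, -0.051 with no background correction and -0.21 to 0.19 with 1 replicate left out, and of miR-291b-5p, to 0.38 with Hy3 alone, 0.086 with loess on bright probes and -0.16 to 0.037 with 1 replicate left out. Among the 3′ arms at background, the sign changed with Hy3 alone for miR-291a-3p (0.11), miR-292-3p (0.17), miR-294 (0.23) and miR-295 (-0.25), with median centring for miR-294 (0.073), with loess on bright probes for miR-295 (-1.16), and with untreated replicates 2 and 3 left out in turn for miR-293 (0.031) and miR-294 (0.092). The cause was not tested, for these and for the calls that changed. With the replicate block, 8 miRNA probes were called, 2 of them in the cluster. No estradiol sample correlated best with the untreated sample of its own number. Among the untreated samples only replicate 1 correlated best with its own number. The files give no slide or scan, so that block was not run. Signal over background limits what can be said of the 3′ arms and of miR-291a-5p.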
